A study of Poecilia mexicana x Poecilia latipinna and Poecilia formosa with 28 samples.

Results

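The 200 genes described were high in the ovary of the Amazon molly and its laboratory-made hybrid counterpart and far lower in brain and liver. They were chosen from 31997 genes by measured levels, in CPM, the count scaled to a library total of 1000000. A gene qualified when its mean in ovary was at least 10 times its mean in brain and in liver, with both genotypes weighted equally, which left 2693 genes. Of these, 178 were dropped because P. formosa and hybrids differed by 4 times or more in some organ (group means plus 0.5 CPM), and the 200 with the highest ovary mean were taken from the 2515 that remained. By construction, high ovary and low brain and liver levels are no finding. The table identifies genes by number and does not pair the numbers with names, so the members are described by their levels, only 5 carry their number here, and the organ labels could not be checked against marker genes.

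All Amazon mollies (Poecilia formosa) are female. They make clonal daughters from unreduced eggs, and sperm of a related species is needed only to start development. The P. formosa group was made up of 4 females, siblings of a single laboratory clone kept for about 70 generations. The group set against it was 6 females of a single brood, F1 hybrids of a P. mexicana mother and a P. latipinna father. Fish of both groups were 3 months old, untreated and raised alike, and since fish within each group were siblings, the spread between them is that of 1 clone and 1 brood. Ovaries of 4 P. formosa and 4 hybrids, brains of 4 and 6, and livers of 4 and 6 were sequenced as messenger RNA, and ovaries of hybrids 11 and 14 were not analysed here.

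A fish ovary holds oocytes at several stages, enclosed by follicle cells that make steroid hormones. Growing oocytes stockpile messenger RNA and protein that the embryo later uses before its own genome becomes active, and transcripts of the egg coat, of germ cells and of the egg's cell cycle are typical of the organ. Such RNA is usually scarce in brain and liver, and the liver of egg-forming females instead makes yolk proteins for export to the ovary. Which of these roles the members have is not given by the files.

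Library totals were 41249726 to 45987727 counts in ovary, 32460110 to 37706902 in brain and 40586409 to 46316691 in liver. The libraries' numbers in the labels fall into 2 series: all P. formosa libraries and those of hybrids 4 and 10 are in the first, and those of hybrids 11 to 14 in the second. The labels do not call the series a batch. Some libraries stood apart for these genes and come up again beside each result they touch: the ovary of hybrid 12, the brain of P. formosa 11, and the livers of P. formosa 4 and 12.

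In the ovary the members had mean levels from 234 to 4478 CPM, with a median of 359 CPM and the middle part of the list, between the quartiles, from 287 to 529 CPM. They were among the 631 genes with the highest ovary mean, the highest of them second of all genes and the lowest at the last of those places. Gene lengths were not used here, so the order is one of read numbers and does not rank molecules. The last 2 members stood at 235 and 234 CPM, and the first 2 genes outside the list at 233.4 and 232.9 CPM. The organ ratio of the 2 members nearest the limit was 10.02 and 10.2, and that of the 2 nearest genes outside it, among genes as high in ovary, was 9.999 and 9.59. The genotype ratio of the 2 members nearest the limit was 3.98 and 3.91, against 4.03 and 4.13 for the nearest dropped genes.

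The limit on genotype ratios removed 51 genes whose ovary mean was above that of the last member, up to 3930 CPM. The liver ratio was at or over 4 in 45 of them and at or under 0.25 in 2, while the brain ratio was outside the limits in 4 and 1 genes and the ovary ratio was at or under 0.25 in 3. The list therefore lacks genes with high ovary counts mainly through their liver ratio, and levels in P. formosa liver are described below. Without the limit, 154 of the 200 genes would be the same.

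Gene 103132983, singled out after its values were seen, had the highest ovary mean of the members. It stood at 4526, 4067, 4058 and 4108 CPM in the ovaries of P. formosa 3, 4, 11 and 12, and at 5208, 5986, 3563 and 4309 CPM in those of hybrids 4, 10, 12 and 13. P. formosa lay within the range of the hybrids, whose values spread more widely, and the log2 fold change (P. formosa minus hybrid, as everywhere here) was -0.20 with a standard error of 0.15 (adjusted p = 0.359). In brain the same gene was at 9.22 to 11.8 CPM in P. formosa and at 5.39 to 9.27 CPM in the hybrids.

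**Figure D1:**
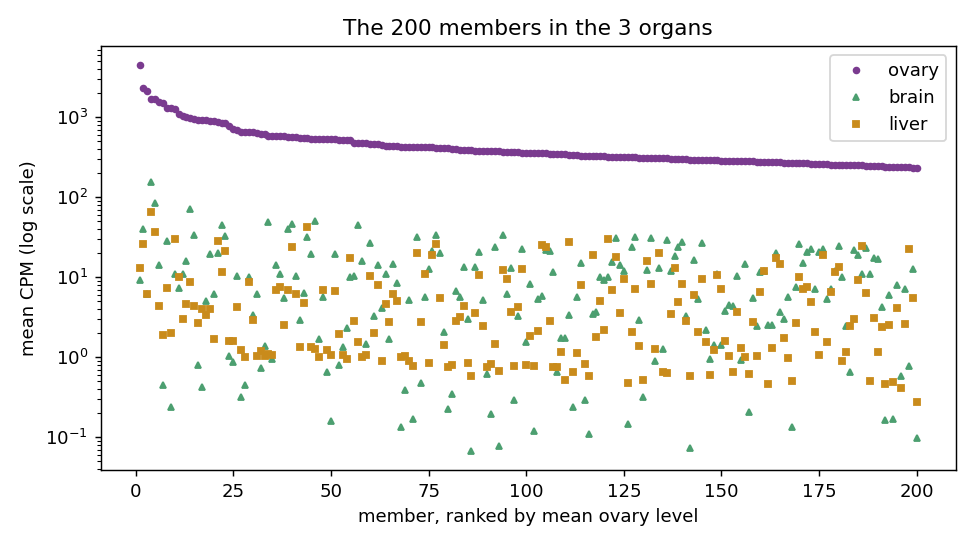
Mean CPM (log scale) of the 200 members in ovary, brain and liver, ordered by their ovary mean, with both genotypes weighted equally. Ovary means run from 4478 down to 234 CPM, while brain means span 0.0673 to 157 CPM with no visible relation to the ovary order.

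Together the members took 10.2%, 9.74%, 9.59% and 9.88% of the counts in the ovaries of P. formosa 3, 4, 11 and 12, a mean of 9.86% ± 0.28 (SD, n = 4). In the ovaries of hybrids 4, 10, 12 and 13 they took 10.4%, 10.2%, 8.70% and 9.52%, a mean of 9.68% ± 0.75 (SD, n = 4). The groups overlapped, and the lowest share was that of hybrid 12. The 10 highest members made up 19.0% to 20.1% of the members' counts in P. formosa ovaries and 18.6% to 20.8% in hybrid ovaries. All 2515 genes that met both limits took 17.1% to 17.99% of P. formosa ovary libraries and 15.9% to 18.2% of hybrid ones. In bulk tissue a share of reads cannot tell fewer cells of a type from less RNA per cell.

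Both genotypes' ovary means entered the choice of members, and so their order in the genotypes is given as a description. Across the 200 genes, which are not independent replicates, Spearman's rho between the genotypes' ovary means was 0.85. Of the 10 highest members in P. formosa, 8 were among the 10 highest in the hybrids, and of the 50 highest, 44 were shared.

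Outside the ovary the members were low, but most were counted. Summed over the list they took 0.224% to 0.324% of P. formosa brain libraries and 0.219% to 0.233% of hybrid ones, and 0.115% to 0.153% of P. formosa liver libraries and 0.101% to 0.121% of hybrid ones. The brain of P. formosa 11 had the highest share of any brain at 0.324%, against 0.224%, 0.257% and 0.241% in the brains of P. formosa 3, 4 and 12. The livers of P. formosa 4 and 12 had the highest shares of any liver, both at 0.153%, against 0.115% and 0.134% in P. formosa 3 and 11.

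**Figure D2:**
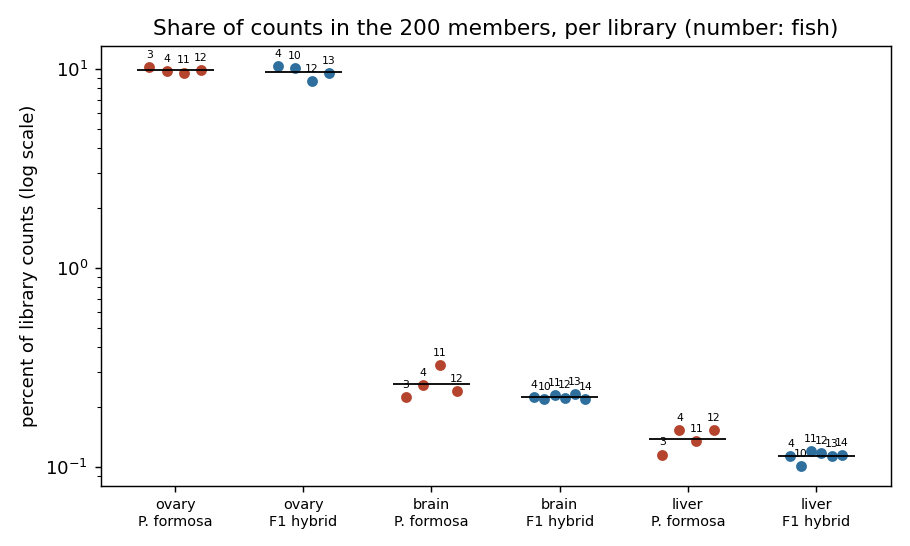
Percent of library counts (log scale) taken by the 200 members in each library, with 1 point per fish, fish numbers above the points and a line at the group mean. Ovaries lie between 8.70% and 10.4%, brains between 0.219% and 0.324% and livers between 0.101% and 0.153%.

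How far the members were confined to the ovary varied widely. The ovary mean was 10.02 to 852 times the higher of the brain and liver means, with a median of 48.5 times. It was over 100 times for 73 members and under 20 times for 54. Brain means ran from 0.0673 to 157 CPM with a median of 7.12 CPM, and liver means from 0.274 to 66.3 CPM with a median of 2.78 CPM. Of the 200 members, 137 were higher in brain than in liver and 63 the other way round.

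By level, 24 members were under 1 CPM in both brain and liver, 18 in brain alone and 16 in liver alone, and 142 reached 1 CPM in both. Brain level bore little relation to ovary level (Spearman's rho 0.07 across members) and more to liver level (0.66), within genes that the rule had already bounded in each organ. Splitting the list by brain level, a split chosen after the data were seen, gave 42 members with a brain mean under 1 CPM, called brain-scarce below, and 158 others.

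In liver the level of the brain-scarce members varied between fish of the same genotype. Each member's CPM in a liver was divided by its mean CPM in ovaries of that genotype and is given per 1000 CPM in ovary. For the 42 brain-scarce members the median was 0.60, 7.65, 1.41 and 4.91 in the livers of P. formosa 3, 4, 11 and 12. In the livers of hybrids 4, 10, 11, 12, 13 and 14 it was 0.64, 0.43, 0.09, 0.08, 1.08 and 0.18. The livers of P. formosa 4 and 12 lay above every other liver, while P. formosa 3 lay within the range of the hybrids.

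In P. formosa livers 4 and 12 the brain-scarce members also stood in nearly the same proportion to one another as in ovary. From the 10th to the 90th percentile, the values per 1000 ran from 5.84 to 10.6 in P. formosa liver 4 and from 3.81 to 6.59 in P. formosa liver 12. In P. formosa livers 3 and 11 they ran from 0.18 to 3.60 and from 0.78 to 3.31. In the hybrid livers with the highest medians, 13 and 4, they ran from 0.60 to 2.49 and from 0.23 to 2.96. RNA carried over from ovary, at dissection or between libraries, was not tested as a source of these counts. Across the 42 members, Spearman's rho between liver and ovary level was 0.76 and 0.68 in P. formosa livers 4 and 12, 0.28 and 0.46 in P. formosa livers 3 and 11, and between 0.12 and 0.52 in the hybrid livers. Counts of these members were fewer in the other livers, where sampling noise weighs more on the ranges and on rho. The 51 genes removed by the limit on genotype ratios had medians of 0.50, 7.43, 1.43 and 5.41 per 1000 in P. formosa livers 3, 4, 11 and 12. In the hybrid livers their medians were 0.04 to 0.96. Of these genes, 45 were removed for a liver ratio at or over 4, so high levels in P. formosa liver were built in. From the 10th to the 90th percentile the removed genes ran from 6.23 to 22.2 in P. formosa liver 4. In P. formosa liver 12 they ran from 3.91 to 36.5, and they were not split by brain level. The same limit bounded the liver levels of the members from above, so it could shorten the members' ranges in these livers.

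P. formosa liver 4 had the highest level of the 4 P. formosa livers for 41 of the 42 brain-scarce members, and for 65 of the 158 others. Of the 42, 1, 0, 0 and 0 had no count in the livers of P. formosa 3, 4, 11 and 12. In the livers of hybrids 4, 10, 11, 12, 13 and 14 the numbers were 0, 1, 15, 15, 0 and 7, so hybrids 4, 10 and 13 were like P. formosa. In brain the medians of the brain-scarce members were closer together, but the split held their brain means under 1 CPM and so bounded them. These medians were 0.60 to 1.14 per 1000 in P. formosa and 0.35 to 0.63 in the hybrids. The brains of P. formosa 4 and 12 had the highest of these, at 1.14 and 0.98.

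**Figure D3:**
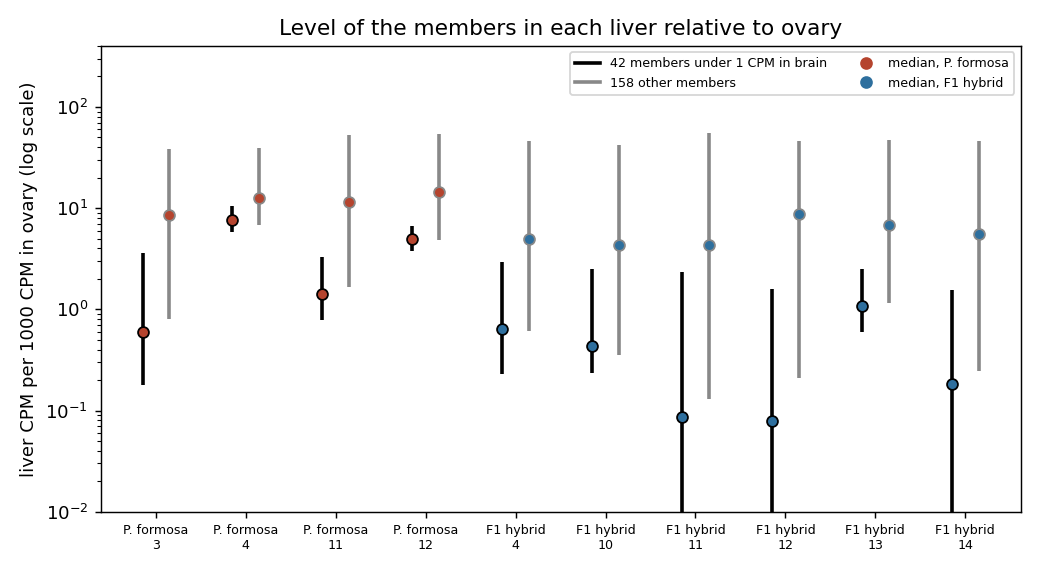
Level of the members in each liver per 1000 CPM in ovary of the same genotype (log scale), with points at the median and lines from the 10th to the 90th percentile, for the 42 members under 1 CPM in brain and the 158 others. Lines that reach the lower edge start at 0. The brain-scarce members sit at 7.65 and 4.91 in P. formosa livers 4 and 12 with short lines, and between 0.08 and 1.41 in the other livers.

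The 158 other members had higher and more scattered liver levels. Their medians were 8.60, 12.7, 11.6 and 14.4 per 1000 in the livers of P. formosa 3, 4, 11 and 12, and 4.28 to 8.78 in the hybrid livers. In brain their medians were 22.5, 31.3, 37.0 and 25.9 per 1000 in P. formosa 3, 4, 11 and 12, against 20.6 to 26.4 in the hybrids. P. formosa brain 11 was the highest P. formosa brain for 86 of the 158.

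Between genotypes, most members differed little in ovary. The test was edgeR's quasi-likelihood test on all 22164 genes with enough counts in ovary, with Benjamini-Hochberg adjustment over all of them. The genotype ratio was part of the rule, so the counts that follow describe the list and nothing is read from setting them beside the background. Every member was tested, and at an adjusted p under 0.05 the calls were 21 up and 29 down in P. formosa, where 14.2% and 13.1% of all tested genes (27.3% together) were called. Among the other genes with an ovary mean as high as the members', 22.0% were called.

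The differences called were small. Log2 fold changes of the members higher in P. formosa ran from 0.21 to 1.20 with a median of 0.38, and of those lower from -0.18 to -1.50 with a median of -0.32. Only 4 of the 50 exceeded 2-fold, and 42 were under 1.5-fold. Over all 200 members the median log2 fold change was 0.02, with quartiles of -0.13 and 0.15, against a median of -0.02 over all genes tested, and without hybrid 12 it was -0.03. The values of P. formosa and hybrids did not overlap for 62 members, and for 31.3% of all tested genes. Of the 42 brain-scarce members 7 were higher and 7 lower in P. formosa ovary, and of the 158 others 14 were higher and 22 lower.

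**Figure D4:**
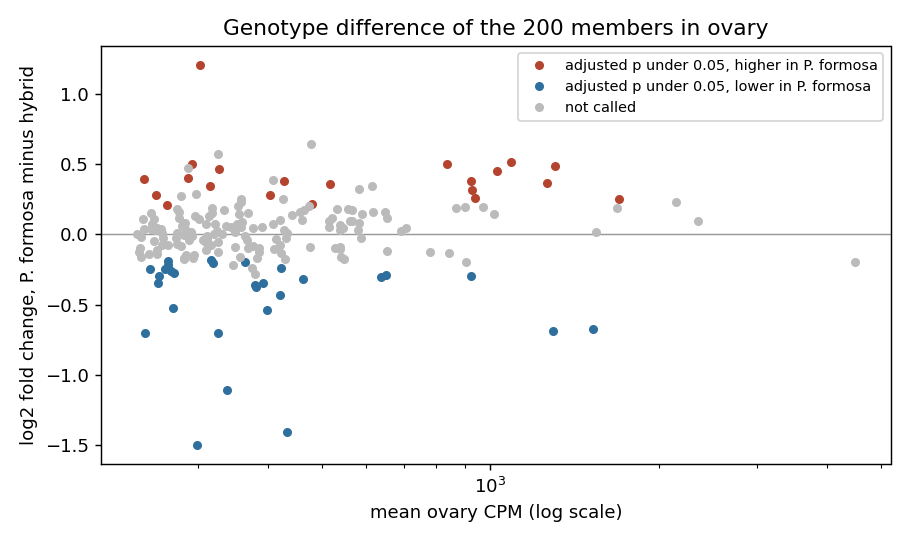
Log2 fold change in ovary (P. formosa minus hybrid, edgeR) of each of the 200 members against its mean ovary CPM (log scale), coloured by call at an adjusted p under 0.05. The 21 members higher and 29 lower in P. formosa mostly lie near 0, and 4 called members pass 1 or -1.

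For called members whose groups did not overlap, the 2 that differed most in each direction are given by fish. Gene 103141874 had 414, 418.1, 422 and 434 CPM in the ovaries of P. formosa 3, 4, 11 and 12, and 194, 137, 272 and 127 CPM in those of hybrids 4, 10, 12 and 13. The clonal siblings were nearly alike and all above the hybrids, which differed among themselves by more than the clone did, with means of 422 ± 8.80 and 183 ± 66.6 CPM (SD, n = 4 each). The log2 fold change was 1.20 with a standard error of 0.22 (adjusted p = 0.0049). This gene averaged 12.1 CPM in P. formosa brain against 11.7 CPM in hybrid brain, and 3.80 CPM in P. formosa liver against 3.22 CPM in hybrid liver, with the genotypes overlapping in both organs.

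Gene 103139973 had 1304, 1223, 1217 and 1396 CPM in the ovaries of P. formosa 3, 4, 11 and 12, and 986, 1026, 735 and 834 CPM in those of hybrids 4, 10, 12 and 13. Every P. formosa ovary was above every hybrid ovary, and hybrids 4 and 10 were the nearest to P. formosa. The log2 fold change was 0.51 with a standard error of 0.11 (adjusted p = 0.0084), and against hybrids 4 and 10 alone it was 0.32 (adjusted p = 0.0038).

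Gene 103129793 had 144, 158, 189 and 137 CPM in the ovaries of P. formosa 3, 4, 11 and 12, and 215, 315, 647 and 592 CPM in those of hybrids 4, 10, 12 and 13. All hybrids were above P. formosa, and the 2 hybrids of the second library series were well above the 2 of the first. The log2 fold change was -1.50 with a standard error of 0.33 (adjusted p = 0.0133), and -0.79 against the hybrids of the first series alone (adjusted p = 0.0412). Its brain values split the same way, at 20.02, 17.5, 19.4 and 14.9 CPM in P. formosa 3, 4, 11 and 12, at 22.0 and 21.9 CPM in hybrids 4 and 10, and at 32.6 to 35.5 CPM in hybrids 11 to 14. The part of the library series in this difference was not tested.

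Gene 103142463 had 241, 236, 254 and 221 CPM in the ovaries of P. formosa 3, 4, 11 and 12, and 636, 675, 567.6 and 637 CPM in those of hybrids 4, 10, 12 and 13. The groups lay far apart, and the hybrids of both series were alike. The log2 fold change was -1.41 with a standard error of 0.07 (adjusted p = 1.4e-06), and -1.49 against the hybrids of the first series alone. In liver its order was the opposite, at 3.34, 4.89, 3.78 and 3.98 CPM in P. formosa 3, 4, 11 and 12. Hybrids 4 and 10, of the same library series, were nearest in liver at 3.11 and 1.92 CPM. Hybrids 11 to 14 were at 1.01, 0.586, 1.48 and 0.830 CPM, and the median over all hybrid livers was 1.25. The log2 fold change in liver was 1.26 with a standard error of 0.40 (adjusted p = 0.0212). Without P. formosa liver 4 it was 1.07 (adjusted p = 0.0661), and without P. formosa liver 12 it was 1.28 (adjusted p = 0.0432). Without both livers it was 0.99 (adjusted p = 0.176), and each of these fits had fewer P. formosa livers.

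**Figure D5:**
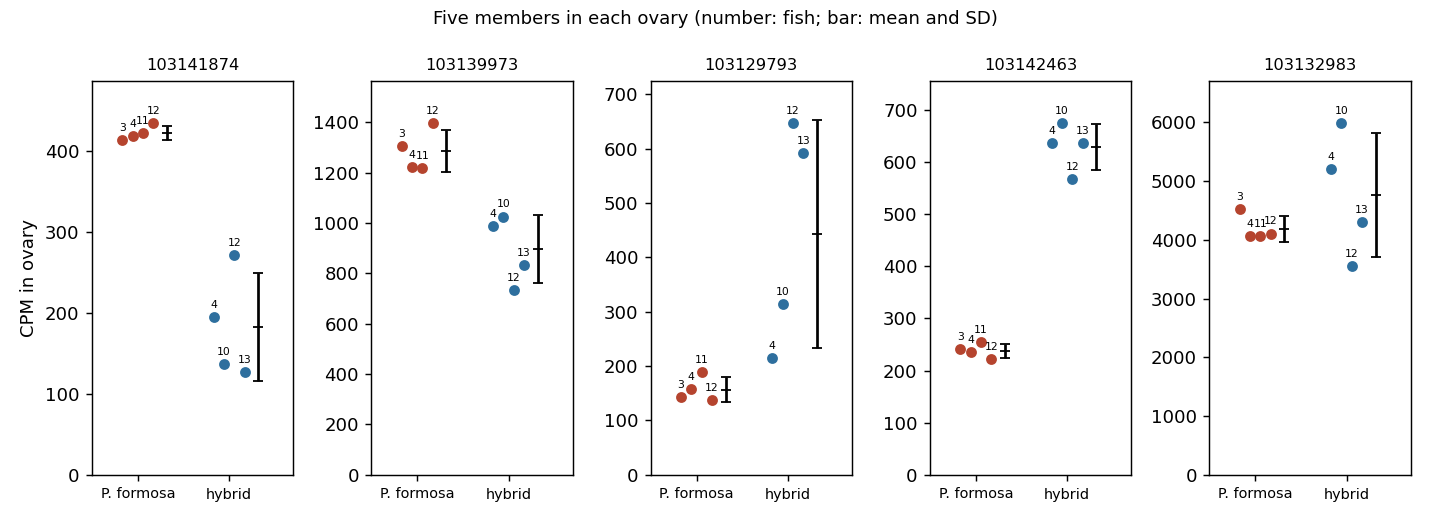
CPM in each ovary (linear axis from 0) of the 4 members named for their genotype difference and of the member with the highest counts, with fish numbers above the points and bars at the mean and SD (n = 4 each). P. formosa ovaries of 103141874 lie between 414 and 434 CPM, above hybrids at 127 to 272 CPM, and those of 103142463 between 221 and 254 CPM, below hybrids at 567.6 to 675 CPM.

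Which hybrids were used changed the balance of directions in ovary. Against hybrids 4 and 10, of the same library series as P. formosa, 84 members had a higher and 116 a lower mean log2 CPM in P. formosa, with a median difference of -0.04. Against hybrids 12 and 13 the counts were 132 higher and 68 lower, with a median of 0.10, and the sign differed between the 2 pairs of hybrids for 66 members (33.0%), against 36.7% of the other genes as high in ovary. In the edgeR test restricted to the first series, 20 members were higher and 58 lower in P. formosa. Of all tested genes, 16.0% and 14.9% were called higher and lower. The median log2 fold change in that fit was -0.07 for members, -0.08 for the other genes as high and -0.0007 over all genes. With the series as a term, 17 were higher and 49 lower, where 14.5% and 12.8% of all tested genes were called. Of the 50 members called with all fish, 41 were called in the same direction in both of these fits.

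The hybrid ovaries also differed among themselves, and series and single fish cannot be told apart in these counts. Hybrids 4 and 10 were both above hybrids 12 and 13 for 118 members and both below for 29. Over all tested genes these shares were 26.5% and 33.2%, and over the other genes as high in ovary 39.0% and 32.9%. Hybrid 12 had the lowest of the 4 hybrid values for 139 members and was under the hybrid mean for 160, with a median deviation of -0.12 in log2 CPM. It was above that mean for 40 members and for 39.2% of the other genes as high in ovary, whose median deviation was -0.04. Hybrid 4 was above the hybrid mean for 154 members, with a median deviation of 0.09, and for 58.7% of those other genes, with 0.03. Hybrid 13, of the same series as hybrid 12, was above that mean for 92 members, with a median deviation of -0.008. Among P. formosa ovaries the deviations were smaller than those of hybrids 4 and 12. Fish 11 was under the clone's mean for 153 members by a median of -0.04, and fish 3 above it for 128 by 0.04. Of the other genes as high in ovary, 38.3% were above the clone's mean in fish 11 and 51.5% in fish 3.

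Clonal siblings differed less in the members' ovary levels than hybrid siblings did. The SD of log2 CPM between fish had a median of 0.06 over members in P. formosa, from 0.01 to 0.29, and of 0.12 in the hybrids, from 0.01 to 0.76. It was larger in the hybrids for 168 of 200 members, and for 78.9% of the other genes as high in ovary. An SD over 0.5 was found for 5 members in hybrids and for 0 in P. formosa. Among the other genes as high in ovary the SD reached 3.06 in P. formosa and 3.95 in the hybrids. How many of those genes passed 0.5 was not determined. The lowest count of any member in an ovary library was 5253, where counting alone gives an error of 1.38%, and at the median count of 15569 it gives 0.01 on the log2 scale.

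By pairs of fish, however, the larger hybrid spread lay with the second series. The median absolute log2 difference over members was 0.05 to 0.10 for the 6 pairs of P. formosa ovaries and 0.05 for hybrids 4 and 10. It was 0.14 for hybrids 12 and 13, and 0.14 to 0.23 for the 4 pairs of hybrids from different series. For the other genes as high in ovary these differences were 0.04 to 0.10, 0.06, 0.11, and 0.14 to 0.22. With hybrids 4 and 10 alone, the SD was larger in hybrids for 59 members, and with hybrids 12 and 13 alone for 132. Both counts set an SD of a single pair against an SD of 4 fish. At equal spread the SD of a pair tends to be lower, so neither compares with the 168 from all hybrids. All fish of the second series are hybrids, so series and fish cannot be told apart here.

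In brain, 181 members had enough counts to be tested, and the 19 left out were too low. Members called were mostly higher in P. formosa, 22 against 3 lower, where 7.79% and 4.27% of all 22611 tested genes were called (12.1% together). The median log2 fold change of the tested members was 0.28, with quartiles of 0.03 and 0.87. That of the other genes as high in ovary was 0.12, and that of all genes was 0.03. Without P. formosa brain 11 these medians were 0.19 for members, -0.006 for the other genes as high and 0.01 for all genes. Of the 22 higher members 3 were brain-scarce, with hybrid brain means of 0.24, 0.14 and 0.42 CPM. Members at such levels in hybrids had little room to be lower in P. formosa. The number of members with enough counts only in P. formosa brains was not determined. The number of calls depended on single fish. It was 7 to 14 without any 1 of hybrids 10 to 14, when 5.90% to 8.03% of all genes were called, and it was 6 without P. formosa brain 4 (5.46% of all genes), 8 without P. formosa brain 11 (7.92%), 45 without P. formosa brain 12 (15.3%) and 52 without P. formosa brain 3 (15.8%). Within the first library series no member passed (0 of 190 tested, 27 at an unadjusted p under 0.05, edgeR), and 1.22% of all genes did. No other tool was run on this subset. The members' median log2 fold change in that fit was 0.36, against 0.03 over all genes, with fewer hybrid brains than above.

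In liver, 193 members were tested, the other 7 being too low. P. formosa was higher for 87 and lower for 14, where 24.2% and 22.5% of all 17402 tested genes were called (46.7% together). The median log2 fold change was 0.92, with quartiles of 0.30 and 2.08, against 0.01 over all genes. Brain and liver ratios were part of the rule, so the counts in both organs are a description too. The filter on low counts was not met by the hybrid livers for 46 of the 193, among them 25 of the 37 brain-scarce members tested. These members were tested only because P. formosa was high enough, and could hardly have been called lower. In the livers of P. formosa 4 and 12 the counts include RNA whose source was not tested, as given above. With upper-quartile scaling the median of all liver genes was 0.17, and that of the members 1.08.

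The liver differences were smaller without the 2 livers in which the members stood apart. These livers were picked for high levels of the same members, so a smaller difference without them was built in. Without both, P. formosa livers 3 and 11 remained. Without P. formosa liver 4 alone, 50 members were higher and 13 lower, where 22.6% and 19.5% of all genes were called. Without P. formosa livers 4 and 12 together, an alternative chosen after seeing the data, 16 members were higher and 9 lower, where 16.4% and 11.4% of all genes were called. The median was 0.38. All 16 members higher in that fit had been called higher with every liver, and 8 of the 9 lower ones had been called lower. For gene 103132983 the values were 6.04, 32.4, 12.2 and 26.0 CPM in the livers of P. formosa 3, 4, 11 and 12, against 2.77 to 14.7 CPM in the hybrids with a median of 5.47. Its log2 fold change in liver was 1.32 (adjusted p = 0.0779), and 0.09 without P. formosa livers 4 and 12 (adjusted p = 0.929).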

How the data were processed

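The authors deposited raw counts of reads per gene as 1 table of 28 libraries, not normalized. TopHat2 and featureCounts are named in the submitters' processing notes without settings. The genome build, annotation and strand handling are not given in the sources used here. Overlapping genes and near-identical copies therefore cannot be told apart, and reads of different alleles may have been counted unequally. RNA had an integrity number above 8, per the labels.

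CPM is the count over the column total times 1000000. Genotypes were tested separately in every organ with edgeR 4.0.16 under R 4.3.3 (filterByExpr, TMM, robust quasi-likelihood test, Benjamini-Hochberg at 0.05). Standard errors are the absolute log2 fold change over the square root of F. SDs use log2(CPM + 0.5). Alternatives were DESeq2 1.42.0, limma 3.58.1 voom, other scalings, no filter, each library left out, the library series and the fish number as a block. Scripts were tested on simulated counts. Libraries of a group differed beyond sampling noise (lowest chi-square per degree of freedom 11.4). Members, lists and tests were chosen with earlier results of these data known. Gene lists and markers by name could not be run, and genes were named by the rule for unnamed tables: 2 per direction in ovary.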

Additional observations from a re-analysis of the deposited data

Results flagged for a closer look

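Gene 103132983 was at 4526 CPM in the ovary of P. formosa 3, far from the other 3 clonal siblings at 4058 to 4108 CPM relative to their range. Of 26 sets of values looked at in this way it was the only 1 to stand out, and chance flags about 1 set in 20.

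Gene 103142463 was lower in every P. formosa ovary and higher in every P. formosa liver than in any hybrid, with log2 fold changes of -1.41 in ovary and 1.26 in liver (edgeR adjusted p = 1.4e-06 and 0.0212). The liver call was lost without P. formosa liver 4 (adjusted p = 0.0661) and without P. formosa livers 4 and 12 (0.176). It was kept without P. formosa liver 12 alone (adjusted p = 0.0432), and each of these fits had fewer P. formosa livers. In liver the nearest values were 3.34 CPM in P. formosa 3 and 3.11 CPM in hybrid 4, of the same library series. The difference between the organs was not tested.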

How the results depend on the processing

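With 1 fish left out in turn, called members numbered 37 to 55 in ovary, against 50 with all fish. In brain they numbered 6 to 52 (25 with all fish) and in liver 63 to 115 (101). Of all tested genes, 19.1% to 28.5% were called in these ovary fits, 5.46% to 15.8% in brain and 36.4% to 48.7% in liver. Shared members of the list numbered 198 to 200, and members with a larger SD in hybrids 131 to 178. For the other settings, shares of all genes called follow in parentheses. In ovary the first series alone gave 78 calls (30.9%). In brain DESeq2 gave 60 calls (20.3%) and limma voom 11 (7.46%), the series term 1 (2.73%) and the first series 0 (1.22%). The members' median log2 fold change in brain was 0.35 with the series term and 0.36 in the first series. It was 0.28 with all fish and no series term. In liver the series term gave 55 (36.2%) and leaving out P. formosa livers 4 and 12 gave 25 (27.8%). The members' median log2 fold change in liver was 1.40 with the series term and 0.38 without these livers. It was 0.92 with all fish and no series term. Fish numbers shared by the genotypes name different animals, and deviations of same-numbered fish correlated at -0.18 to 0.12. With the number as a replicate block, only numbers found in both genotypes bear on the genotype difference. These are 4 and 12 in ovary, and 4, 11 and 12 in brain and liver. The other fish drop out of the comparison, so calls can be lost for want of fish. Ovary then had 2 calls (2.63%), brain 0 (0.579%, with 41 members at an unadjusted p under 0.05, edgeR) and liver 101 (29.1%). Genes 103141874, 103139973 and 103129793 were not called in ovary (edgeR adjusted p = 0.0651, 0.280 and 0.386). In the other alternatives these 3 and 103142463 kept direction and call.

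The list shared 133 genes with that from TMM-scaled totals across organs, 122 with a 30-fold and 140 with a 4-fold organ ratio. With 100 or 400 genes the share of ovary counts was 6.97% or 13.3% in P. formosa and 6.78% or 13.1% in hybrids. With hybrids 4 and 10 alone, 59 members had a larger SD in hybrids, an SD of a single pair against an SD of 4 fish. A count of 0 in liver does not show absence, since depth limits what can be counted. Hybrid liver 12, with 44384168 counts, had 20 members at 0, while hybrid liver 13, with 41789853, had 0.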
